A study of Rattus norvegicus with 2 samples.

Results

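This account covers 10 genes of the Notch pathway in IEC6 cells, an epithelial line from rat small intestine: the receptors Notch1, Notch2 and Notch3, the ligands Jag1, Jag2 and Dll1, the nuclear factors Rbpj and Maml1, and the target genes Hes1 and Hey1. They were chosen by name, as the non-control probes whose gene name in the scanner files is one of these, which gave 13 probes on 14 spots and 10 of the 27235 genes with a probe. The treated culture had Na2S3 (sodium trisulfide, an inorganic polysulfide) for 60 min, at 100 µM in the sample label and design text and at 100 mM in the treatment protocol, a conflict that the sources leave unsettled. The control culture had water for 60 min. Both were dish cultures of IEC6, treated in medium with little serum, and each gave 1 single-colour (Cy3) Agilent array. A single array per group leaves nothing to test and no p-value to give, so "higher" and "lower" describe this pair of arrays.

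Notch receptors are membrane proteins that a ligand on a neighbouring cell activates. ADAM proteases and then gamma-secretase cut the bound receptor, and the freed intracellular domain enters the nucleus, where it joins the DNA-binding protein RBPJ and a Mastermind coactivator and turns on genes of the HES and HEY repressors. In the intestinal crypt Notch signalling keeps progenitor cells dividing and favours absorptive over secretory fate, in part because HES1 represses Atoh1.

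Levels below are processed signals as a percent of the 75th percentile of the same array over non-control probes (478 intensity units on the Na2S3 array and 413 on the water array). Ratios are log2 of the Na2S3 level over the water level, and a level of 1 gene is never set against that of another, since probes differ in how strongly they bind. A probe was measured when it was well above background on both arrays by the scanner software's flag. The spot error is the SD of single-spot log2 ratios of probes that are repeated on the array, at similar signal. It is divided by the square root of the number of spots of the probe it is given for. This error covers noise between spots of this pair of arrays. It leaves out variation between cultures and between arrays, which this design does not measure. The arrays were alike in detection, with 49.0% of 45598 probes well above background on the Na2S3 array and 49.5% on the water array. Of the intestinal epithelial markers, Krt8, Krt18, Krt19, Cdh1, Cldn3 and Cdx1 were measured, whereas Epcam, Vil1 and Cdx2 stayed at background on both. The fibroblast markers Col1a1, Col1a2, Col3a1, Thy1, Acta2 and Vim were measured too, whereas Pdgfra and Pdgfrb stayed at background on both. Also measured were 3 of 5 endothelial and 2 of 4 blood cell markers. None of these 17 measured markers was 2-fold different (0 higher, 0 lower), and their log2 ratios ran from -0.43 to 0.05. Over all measured genes 0.942% were higher and 0.62% lower by as much, so 0 of 17 does not set the markers apart.

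Hes1 was the single gene of the 10 that was measured on both arrays and at least 2-fold different, and it was higher in the Na2S3 array. Jag2 cleared background only after Na2S3, at 1 of its 2 probes. Jag1 was lower by more than 1.5-fold but less than 2-fold. Maml1 was higher by less than 1.5-fold, and Rbpj was close to even at each of its 3 probes. In all, 7 of the 10 genes were measured, Notch2 and Jag2 cleared background only after Na2S3, and Dll1 did so on neither array, whereas 48.0% of all genes with a probe were measured. Of the 7 measured genes, 1 was higher by 2-fold or more and 0 were lower by as much, against 0.942% and 0.62% of the 13062 genes measured in the series. Their log2 ratios had a median of 0.24, against -0.04 over all measured genes, with 4 above 0 and 3 below. That median is the Hey1 value. With normexp background correction Hey1 (-0.05) and Notch1 (-0.04) fell below 0, which left only Hes1 and Maml1 above it. The median over all measured genes was then -0.04, so these genes showed no settled lean upward. These are RNA levels of whole cultures, so fewer cells that express a gene and less RNA per cell cannot be told apart.

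**Figure D1:**
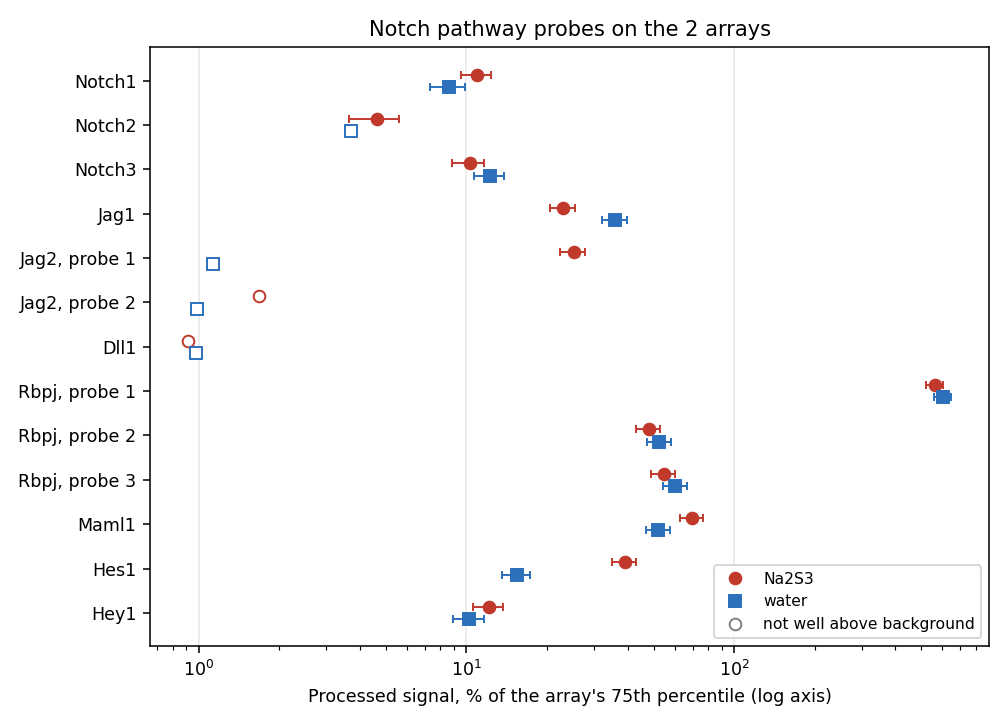
Processed signal of each probe of the 10 genes, as a percent of the 75th percentile of its array on a log axis, for the Na2S3 array (circles, upper of each pair) and the water array (squares). Open symbols are not well above background and carry no bar; bars on filled symbols are the scanner software's error of the spot signal. Hes1 (39.0% against 15.4%) and the first Jag2 probe (25.1% against 1.13%) stand furthest apart.

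Hes1 encodes a basic helix-loop-helix repressor and is the best known direct target of Notch. Its probe had a signal of 186 intensity units (software error 19.2) on the Na2S3 array and 63.8 (7.70) on the water array. As levels these were 39.0% in the Na2S3 array and 15.4% in the water array, both well above background. The Na2S3 level was thus 2.53-fold the water level, a log2 ratio of 1.34 with a spot error of 0.18. The difference was larger than the spread between repeat spots of this pair of arrays. Of the 13062 measured genes, 61, Hes1 included, had a ratio this high (0.467%). With normexp background correction the log2 ratio was 0.81 (1.75-fold), so Hes1 no longer passed 2-fold, and 99 genes (0.758%) then stood as high. In the other alternatives it ran from 1.34 to 1.39, though several of these could hardly change the ratio of 1 unflagged spot. In the deposited value table it was 1.39. The value rests on 1 spot per array, with 0 outlier or saturation flags. On the Na2S3 array the spot's mean pixel brightness was 258 and its median 250. Its pixel SD was 55.2, and 11.3% of the 1180 spots within 10% of that brightness had one as high.

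The Hes1 probe is shown because the largest measured difference among these genes rests on it alone. It lies on chromosome 11 at 72605138 to 72605197, minus strand, in the rn4 coordinates of the files, and 1 of its 3 forward reading frames holds no stop codon. No exon or UTR annotation of rn4 was used here. The sequence is given 5′ to 3′.
Hes1 probe A_44_P435739: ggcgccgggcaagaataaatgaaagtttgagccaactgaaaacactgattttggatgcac

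The stretch just upstream of Hes1 is shown because RBPJ and HES1 itself are both known to bind there, the first to activate it with Notch and the second to repress it. In the RefSeq promoter table of GRCr8, 9 of the 10 genes have an entry (11 entries), and the 250 bases before each annotated start were searched on both strands for the RBPJ core TGGGAA and for the N box CACNAG, which HES proteins bind. The 2 motifs did not overlap each other in Hes1. Hes1 held TGGGAA 2 times, both on the gene's own strand, with first bases 123 and 109 upstream of the start. Of 33469 promoter entries, 22.1% held TGGGAA at least once and 2.71% at least 2 times. Hes1 held CACNAG 4 times, while 37.2% of entries held it and 8.02% did so at least 2 times. Capitals mark TGGGAA in the sequence below, which is chr11:84213046-84213295, minus strand, of GRCr8, read along the gene.
Hes1, 250 bases before the start: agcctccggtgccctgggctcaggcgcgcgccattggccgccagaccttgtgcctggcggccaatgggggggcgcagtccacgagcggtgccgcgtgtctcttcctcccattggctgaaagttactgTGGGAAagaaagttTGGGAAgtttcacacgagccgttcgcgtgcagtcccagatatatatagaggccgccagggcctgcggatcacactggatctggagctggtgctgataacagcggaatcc
Among the other genes, Dll1 held TGGGAA 2 times and the 2 Rbpj entries 1 and 2 times. None of the entries of Notch1, Notch2, Notch3, Jag1, Jag2 and Maml1 held it (0 matches), while Notch1 held CACNAG 4 times and Notch3 1 time. A match describes letters in this window and shows no binding.

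Hey1, the other target gene, encodes a repressor related to HES1. Its level was 12.1% in the Na2S3 array and 10.3% in the water array, both well above background. The log2 ratio was 0.24 with a spot error of 0.27, within the spread of repeat spots, and it was -0.05 with normexp, so it has no settled direction. Its probe lies on chromosome 2 at 95175974 to 95176033, plus strand. Whether the ratios of Hes1 and Hey1 differ could not be tested with 1 array per group.

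Jag2, a ligand of the Serrate family, gave different pictures at its probes. The probe made to a partial coding sequence of Jag2 had a signal of 120 intensity units (software error 12.8) on the Na2S3 array and 4.69 (3.99) on the water array. As levels these were 25.1% in the Na2S3 array, well above background, and 1.13% in the water array, not well above background. Against the lowest level of any probe well above background on the water array (4.44%), the Na2S3 level was at least 5.67-fold higher. Of 451 genes with a bound in that direction, 8 had one as high, Jag2 included. Of the genes not above background on the water array, 0.811% had a bound of at least 2-fold. Among the 10, the 3 genes not above background there were Jag2, Notch2 and Dll1, and Jag2 alone had such a bound.

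The other Jag2 probe stayed at background on both arrays, with levels of 1.69% in the Na2S3 array and 0.987% in the water array. In rn4 it lies 176 bases from the first, on the same strand of chromosome 6 (137909747 to 137909806, minus strand). The bright probe spans 137909983 to 137910029, so the 47 bases of its mapped span are shorter than its 60 bases. Disagreement of this kind was common: of 52 genes with more than 1 probe and a bound of at least 2-fold at any of them, 25 had every other probe at background on both arrays, and 0 had such a bound at every probe. The bright Jag2 spot carried 0 outlier flags, but its pixels were uneven. Their mean was 200.5 and their median 186, and the pixel SD of 55.7 was reached by 1.35% of the 1333 spots of similar brightness, whose median pixel SD was 37.6. The part of the probe, of that spot or of a transcript form in this difference was not tested. With normexp the bound was 1.003 on the log2 scale, against 2.50 as reported.

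The bright Jag2 probe is printed so that its match to Jag2 transcripts can be checked. It is given 5′ to 3′, and the dim probe is named only (A_64_P097578).
Jag2 probe A_44_P994364: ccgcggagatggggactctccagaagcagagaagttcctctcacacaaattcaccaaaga

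Jag1, the other Serrate-type ligand and a ligand that Notch itself can induce in other tissues, was lower. Its signal was 110 intensity units (software error 11.8) on the Na2S3 array and 149 (15.5) on the water array. As levels these were 22.9% in the Na2S3 array and 36.0% in the water array, both well above background. The Na2S3 level was 1.57-fold lower, a log2 ratio of -0.65 with a spot error of 0.18. The difference was larger than the spread between repeat spots of this pair of arrays. Of the measured genes, 2.50% had a ratio this low. It stayed below 0 and short of 2-fold in each of the 8 alternatives (-0.65 to -0.40). Several of these could hardly change the ratio of 1 unflagged spot, but it was -0.61 with both quantile normalization and loess. With normexp, at -0.40, it no longer passed 1.5-fold. As reported, of the 7 measured genes, Hes1 and Jag1 were more than 1.5-fold different, 1 higher and 1 lower, against 2.96% of all measured genes that were higher by 1.5-fold or more and 3.41% that were lower by as much. The Jag1 probe lies on chromosome 3 at 125181316 to 125181375, minus strand.

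Dll1, the Delta-type ligand of crypt secretory cells, was at background. Its level was 0.915% in the Na2S3 array and 0.978% in the water array, and it was well above background on neither. No fold is given for it. Its probe lies on chromosome 1 at 54240861 to 54240920, minus strand.

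**Figure D2:**
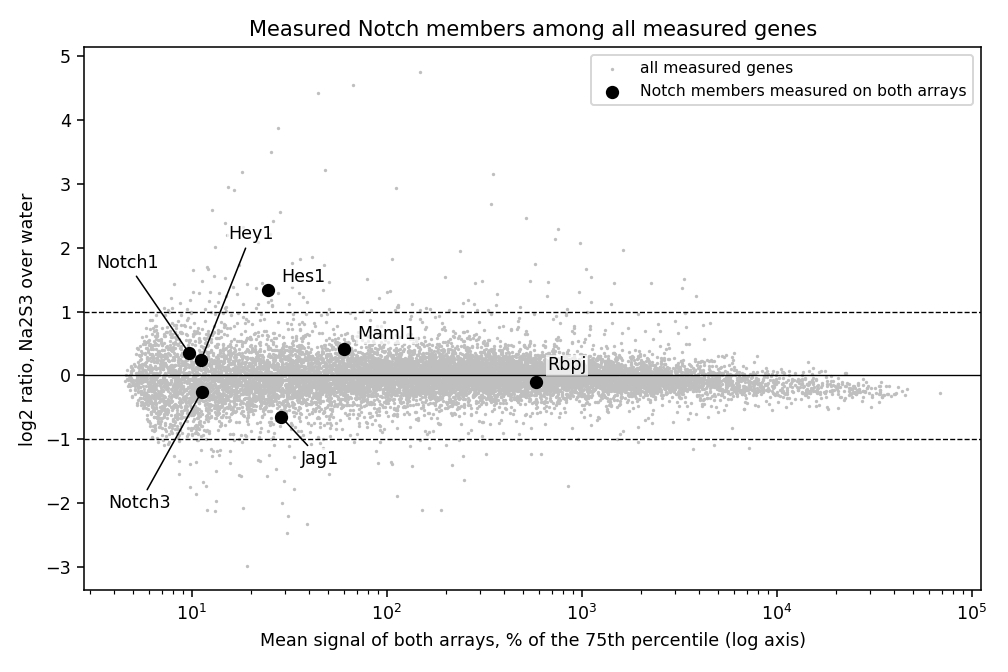
Log2 ratio of the Na2S3 array over the water array (vertical axis) against the mean signal of both arrays as a percent of the 75th percentile (log axis), for 13062 measured genes in grey and the 7 measured Notch genes in black. Dashed lines mark 2-fold either way: Hes1 at 1.34 lies above the upper line, and the other 6 lie between the lines, where the grey cloud widens toward low signal.

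The receptors were at low signal, and Notch1 and Notch3 had small ratios. Notch1, the receptor most studied in intestinal crypts, had a level of 10.9% in the Na2S3 array and 8.60% in the water array. Its log2 ratio was 0.35 with a spot error of 0.27, and it was -0.04 with normexp. Notch3, known mainly from vascular smooth muscle, had 10.3% in the Na2S3 array and 12.3% in the water array, a log2 ratio of -0.25 with a spot error of 0.27 that stayed between -0.25 and -0.18 in the alternatives. Notch2, which acts with Notch1 in crypt progenitors, had 4.63% in the Na2S3 array, just above background, and 3.72% in the water array, not well above it. Its bound is at least 1.04-fold higher, and 3.4% of genes at background on the water array likewise cleared it only after Na2S3. Neither Notch1 nor Notch3 thus had a ratio past 1.5-fold. Of all measured genes, 2.96% were higher and 3.41% lower by as much, so this does not set them apart. A lower bound from a level this close to background cannot show how far Notch2 differed. The Notch1 ratio has no settled direction. In rn4 the Notch1 probe lies on chromosome 3 at 4631829 to 4631888, minus strand, the Notch2 probe on chromosome 2 at 192986490 to 192986549, plus strand, and the Notch3 probe on chromosome 7 at 12688358 to 12688417, minus strand.

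Of the nuclear factors, Maml1 was higher and Rbpj was near even. Maml1 encodes a Mastermind coactivator that bridges the receptor's intracellular domain to histone acetyltransferases. Its level was 69.7% in the Na2S3 array and 52.1% in the water array, a 1.34-fold difference with a log2 ratio of 0.42 and a spot error of 0.12. That is larger than the spread between repeat spots of this pair of arrays, and 5.54% of measured genes had a ratio as high. The ratio stayed between 0.33 and 0.45 in the alternatives. The Maml1 probe lies on chromosome 10 at 35815067 to 35815126, minus strand.

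Rbpj, which encodes the DNA-binding partner that Notch turns from repressor to activator, had 3 measured probes. The brightest, spotted 2 times, had levels of 561% in the Na2S3 array and 603% in the water array, a log2 ratio of -0.10 with a spot error of 0.06, and its spots gave -0.09 and -0.11. The other probes had 47.9% and 54.5% in the Na2S3 array, against 52.6% and 60.3% in the water array, with log2 ratios of -0.14 and -0.15 and spot errors of 0.14 and 0.13. The 3 probes lay within 0.05 of each other. Against the median of -0.04 over all measured genes, these ratios differ by little more than their spot errors, or by less. Only the probe with levels of 47.9% and 52.6% has rn4 coordinates, on chromosome 5 at 4664854 to 4664913, while the table of GRCr8 places Rbpj on chromosome 14. Whether a related copy of the gene adds to that probe's signal was not tested.

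**Figure D3:**
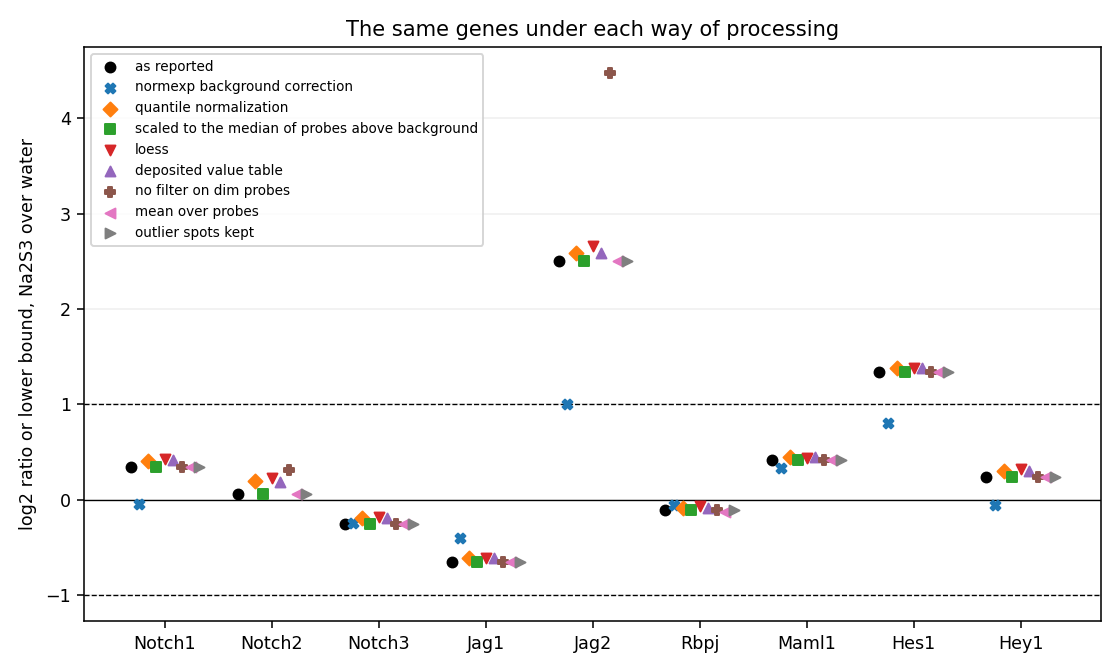
Log2 ratio of the Na2S3 array over the water array, for 9 genes under the reported processing (black circles) and up to 8 alternatives. Notch2 and Jag2 are drawn at lower bounds, except with no filter on dim probes, where their plain ratios of 0.32 and 4.47 are drawn, and Notch2 has no value with normexp. Dashed lines mark 2-fold either way; normexp (blue crosses) moves Hes1 to 0.81, Jag2 to 1.003 and Notch1 and Hey1 to just under 0, and Dll1 has no value as reported and is not drawn.

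The wider pathway showed no measured gene past 2-fold. Of 63 further pathway genes, listed by role, 61 had a probe and 46 were measured. Among these 46, 0 passed 2-fold upward and 0 downward, against 0.942% and 0.62% of all 13062 measured genes. With shares this small, a count of 0 among 46 does not set the pathway apart. Of the 46, 17 had a ratio above 0 and 29 below, against 5669 above and 7393 below among all measured genes. Their median was -0.12, against -0.04 over all measured genes. The largest ratio was 0.51 and the smallest -0.65.

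Of the 7 Hes and Hey genes outside the 10, 4 were measured. All 4 had a ratio below 0 as reported, where 7393 of all 13062 measured genes stood. Their median was -0.40. It was -0.29 with normexp, -0.36 with loess, and -0.37 with quantile normalization and in the deposited value table. All 4 were below 0 in each of the 8 alternatives, but each rests on 1 measured probe, so several alternatives could hardly change them. Hes7, a clock gene of somite formation, had 3552% in the Na2S3 array and 5566% in the water array, a log2 ratio of -0.65 with a spot error of 0.07. Its other probe was not measured, and whether the bright probe reports Hes7 alone was not tested. Hes2 had -0.46 with a spot error of 0.27, Hey2 had -0.34 and Hes6 had -0.32. Hes3 cleared background only with water and was at least 1.12-fold lower in the Na2S3 array, and Hes5 and Heyl were above background on neither. Hes1 and Hey1, described above, had positive ratios as reported (1.34 and 0.24), and Hey1 had -0.05 with normexp. The difference between Hes1 and the other genes could not be tested with 1 array per group.

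Receptor-side genes moved little. Of the receptors and ligands outside the 10, Notch4 had a log2 ratio of 0.50 (0.22 with normexp), Dll3 had 0.17 (-0.03 with normexp) and Dlk2, an atypical ligand, had -0.47, while Dll4 and Dlk1 stayed at background on both arrays. The 9 genes of the proteases that cut Notch and of their subunits were all measured, with a median of -0.18. This median depended on the processing: it was -0.14 with normexp, -0.08 with loess and -0.09 with the mean over probes. Psenen, a subunit of gamma-secretase, had the lowest ratio at -0.29. The transferases that add sugars to Notch had a median of -0.15 over 4 measured genes, from Lfng at -0.36 to Rfng at -0.13. The ubiquitin ligases that activate ligands had Mib2 at 0.19, Mib1 at 0.04 and Neurl1 at -0.28.

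Genes that tune Notch inside the cell were spread on both sides of 0. Genes of receptor trafficking and turnover had a median of 0.0033 over 8 measured genes, from Dtx2 at 0.29 to Dtx3l at -0.33. Nrarp, a Notch target that feeds back on the receptor complex, cleared background only after Na2S3 and had a lower bound of 0.14 on the log2 scale, and Dtx1, a Notch target in lymphocytes, did so only with water and was at least 1.41-fold lower after Na2S3. Nuclear cofactors had a median of -0.04 over 12 measured genes, 6 on either side of 0. By brightest probe, Tle2, a corepressor that HES proteins recruit, had the highest ratio at 0.51, which was 0.03 with normexp. Its levels were low, 8.60% in the Na2S3 array and 6.05% in the water array, with a spot error of 0.27. Another cofactor gene had 0.63 at a second probe, against 0.18 at its brightest. Snw1, a component of RBPJ complexes and of the spliceosome, had the lowest at -0.60, with 91.2% in the Na2S3 array and 138% in the water array and a spot error of 0.09. Tle1 cleared background only with water and was at least 1.35-fold lower after Na2S3.

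Intestinal fate genes under Notch were mostly not measurable. Of 8 genes, Atoh1, the driver of secretory fate that HES1 represses, stayed at background on both arrays, as did Neurog3, Gfi1, Olfm4 and Lgr5. Spdef, a goblet and Paneth cell factor, had a log2 ratio of -0.50 with a spot error of 0.27, Ascl2 had -0.11, and Sox9 had 0.03 at its brightest probe, with a range of -0.48 to 0.03 over its 3 measured probes. A fold for Atoh1 beside the higher Hes1 level therefore cannot be given from these arrays.

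**Figure D4:**
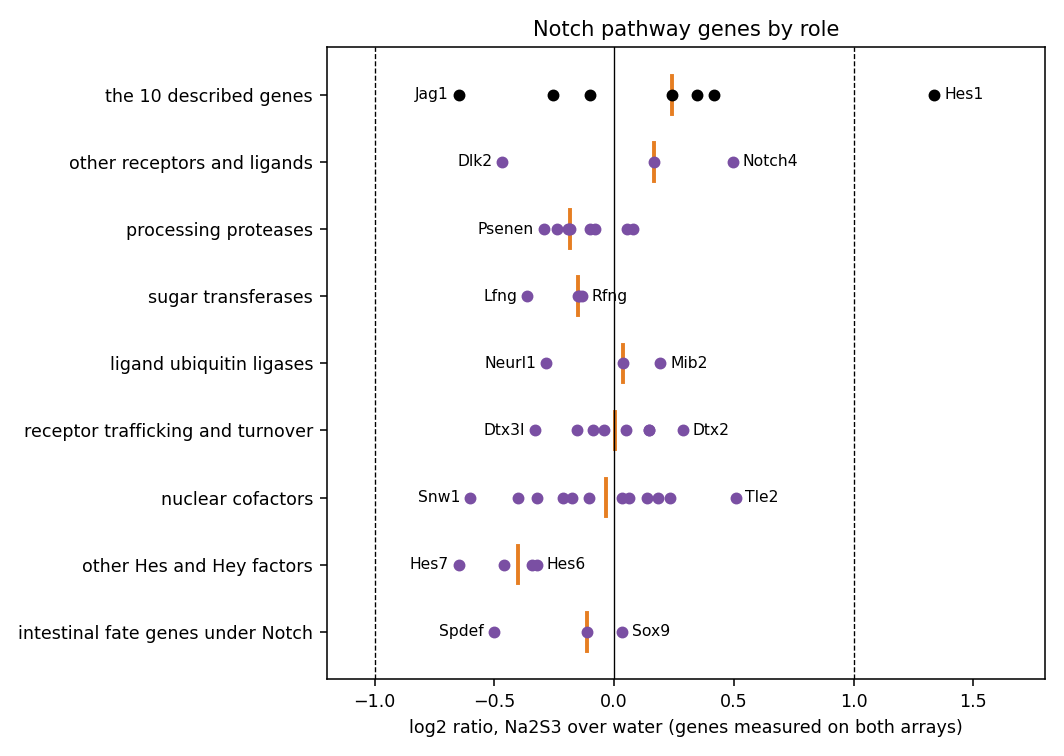
Log2 ratio of the Na2S3 array over the water array for each gene measured on both arrays, in rows by role, with the 7 measured of the 10 described genes on top. Orange ticks are row medians, dashed lines mark 2-fold either way, and the lowest and highest gene of each row are named, except that the protease row names its lowest only; Hes1 alone lies past a dashed line, and the 4 genes in the row of other Hes and Hey factors lie below 0.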

How the data were processed

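RNA from 1 culture per group was labelled with Cy3 after amplification, for 1 Agilent array each, per the labels' protocols. The deposited scanner files hold linear spot intensity values, background-subtracted and detrended within the array but not normalized between arrays, from Agilent Feature Extraction 10.7.1.1 with build rn4, per the file headers (version 9.5.1.1 per the submitters' processing notes). The deposited value table also holds intensity values, and how the authors normalized it is not stated. Its columns share nearly all sorted values, and its ratios nearly equal those of quantile normalization here (Hes1 1.387 and 1.386). It is thus no separate check from that alternative.

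Here, outlier spots were left out, log2 signals averaged per probe, and arrays scaled to their 75th percentile of non-control probes, removing a shift of 0.21 (Python 3.11.15; limma 3.58.1 for normexp, quantile and loess). A gene takes its brightest probe above background on both arrays. The call is 2-fold, since 1 array per group allows no test, and that number of arrays limits the precision. Spot errors pool the 50 repeat probes nearest in signal. For the dimmest genes these span 23.3 to 153 intensity units, so their errors are rough. Other probes were named through RefSeq accessions of GRCr8 where these matched. The calling rule was tested on simulated data. That simulation left out the dimmest probes and used less noise than the dim genes here show, so it does not cover them.

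The genes, lists, naming rule (all 10 genes, then the extremes and any 2-fold gene of each role list) and alternatives were chosen with earlier results of these data known. The N box search and the pixel spread of the Hes1 and Jag2 spots were chosen after the values were seen. A gene that the naming rule selects is not reported here.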

Additional observations from a re-analysis of the deposited data

How the results depend on the processing

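The 8 alternatives were run for each count and for the Notch genes with a value as reported; Notch2 has no value with normexp (7 alternatives), and Dll1, at background, has none. With normexp Jag1 had a log2 ratio of -0.40 and no longer passed 1.5-fold. With normexp background correction 0 of the 7 measured Notch genes were at least 2-fold higher, against 1 as reported. All genes then gave 61 higher and 31 lower, against 123 and 81. The offset used with normexp is a constant added to every signal, which weighs most on dim ones. Dim ratios shrank but did not simply move toward 0: Notch1 went from 0.35 to -0.04 and Hes2 from -0.46 to -0.23. With no filter on dim probes 2 of the 10 Notch genes were at least 2-fold higher (Hes1 and Jag2), 1 further pathway gene was higher (Nrarp) and 1 lower (Hes3), and all genes gave 1062 higher and 1545 lower, so that 40.7% of calls were higher, against 60.3%. Quantile normalization, loess, scaling to the median of probes above background, the deposited value table, the mean over probes and keeping outlier spots left Hes1 as the 1 measured Notch gene past 2-fold. No paired analysis was possible because each group has 1 array. Signal over background limits what can be said of Notch1, Notch2, Notch3, Hey1 and Dll1, whose spots are near or at background. The Hes1 spot was also dim on the water array (63.8 intensity units), and its spot error is taken at the mean signal of both arrays.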
